A study of Mus musculus with 6 samples.

Results

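Macrophages other than microglia were compared between Rbpj-deleted mouse gliomas and healthy mouse brains, in single-cell RNA sequencing of sorted CD45+ immune cells. CD45 is the surface protein shared by blood-derived and resident immune cells. Cells were chosen from raw counts of unique transcript molecules (UMI counts) of 27 genes, in 5 sums per cell. M summed the microglial genes Tmem119, Olfml3, Gpr34, Crybb1, Golm1 and Slc2a5. B summed Mrc1, Pf4, Cbr2, Cd163 and Lyve1, genes of the macrophages that line the borders and vessels of the brain. D summed Ms4a4c, Plac8, Lyz1, Ly6i and Ly6c2, genes of monocytes and cells newly derived from them. L summed the lymphocyte genes Cd3d, Cd3e, Cd3g, Trac, Nkg7 and Cd79a, and C summed the dendritic cell genes Cd209a, Clec4b1, Ccl17, Olfm1 and Flt3. A cell was kept where B+D was at least 5 and above M, L was at most 1 and C was at most 2. This kept 2380 of the 15312 cell barcodes of the 4 libraries compared, and 2638 of the 17362 barcodes of the whole series. The counts of these 27 genes chose the cells, so their values are given as a description with no test.

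The Rbpj-deleted tumours were labelled as knocked out for both Trp53 and Rbpj. The control tumours were labelled as knocked out for Trp53 with wild-type Rbpj, and the healthy brains as wild type for both genes. Each group had 2 libraries, numbered 1 and 2. Tumours were at an early stage and were found by green fluorescence from Rosa-CAG::GFP, a Cre reporter. The design text describes pools of 9 Rbpj-deleted tumours, 15 control tumours and 9 healthy brains, while the library protocol describes 1 mouse per well, so it is not known whether a library holds 1 animal or several. Strain, age, sex, the source of Cre and the cells in which the genes were deleted were not given in the sources used here. P-values therefore refer to the variation among these libraries alone, and that may be technical.

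The brain's resident macrophages outside the tissue itself sit in the meninges, the choroid plexus and the spaces around vessels. They are marked by scavenger receptors such as the mannose receptor, encoded by Mrc1, and by the hyaluronan receptor encoded by Lyve1. Gliomas also draw monocytes from the blood, which lose their monocyte genes as they turn into macrophages. RBPJ is the DNA-binding protein through which Notch receptors act on their target genes. Interferon-gamma, made mainly by T cells and natural killer cells, acts on macrophages through its receptor and raises genes for antigen presentation, guanylate-binding proteins and the chemokines that attract T cells. Glucocorticoids act on macrophages through a nuclear receptor that raises genes such as Fkbp5 and Tsc22d3.

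The cells meeting the rule were 510 of 3057 barcodes (16.7%, exact 95% interval 15.4 to 18.1) and 723 of 2348 (30.8%, 28.9 to 32.7) in Rbpj-deleted libraries 1 and 2. In the control libraries they were 198 of 1292 (15.3%, 13.4 to 17.4) and 60 of 758 (7.92%, 6.09 to 10.1), and in the healthy libraries 833 of 7263 (11.5%, 10.7 to 12.2) and 314 of 2644 (11.9%, 10.7 to 13.2). Both Rbpj-deleted libraries were above both healthy ones in this share, which depends on the sort and on the other cells captured. An exact permutation test of 2 against 2 libraries cannot give a two-sided p below 0.333, so no test was made. Intervals cover counting error only. The cells' median UMI counts were 9344 and 7387 in the Rbpj-deleted libraries, 12896 and 13022 in the control libraries, and 6560 and 7519 in the healthy ones. Summed over the cells there were 5771776 and 6706458 counts in the Rbpj-deleted libraries, 2770414 and 911409 in the control libraries, and 6536465 and 2580681 in the healthy ones.

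Cells with B above D are called border-type here, and cells with D above B monocyte-derived-type. The 2 types made up very different shares of the groups. Border-type cells were 340 cells (66.7%) and 210 cells (29.0%) of the Rbpj-deleted libraries, 57 (28.8%) and 40 (66.7%) of the control libraries, and 780 (93.6%) and 281 (89.5%) of the healthy ones. Monocyte-derived-type cells were 168 (32.9%) and 510 (70.5%) of the Rbpj-deleted libraries, 139 (70.2%) and 20 (33.3%) of the control libraries, and 52 (6.24%) and 33 (10.5%) of the healthy ones. Both Rbpj-deleted libraries thus had a larger share of monocyte-derived-type cells than both healthy libraries, and they differed from each other by more than their counting intervals of 28.9 to 37.2% and 67.1 to 73.8%. The contrast is therefore given over all cells and again within each type. Between 0 and 3 cells a library had B equal to D and entered neither type.

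**Figure D1:**
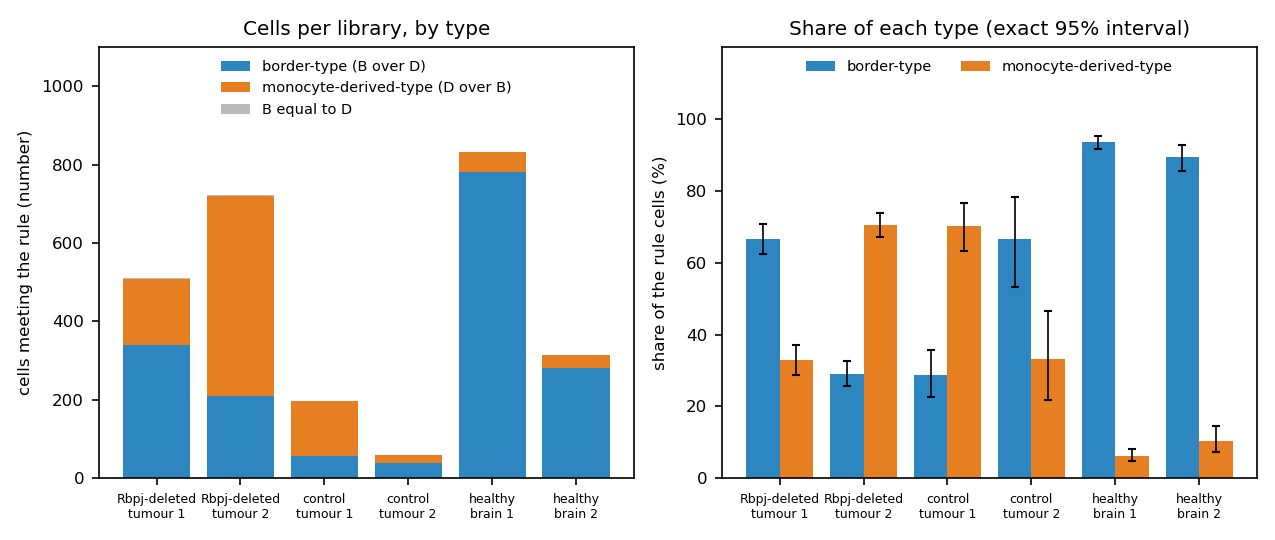
Cells meeting the rule in each library (left, number of cells, stacked by type) and the share of each type among them (right, %, bars are exact 95% binomial intervals). The 2 healthy libraries held 93.6% and 89.5% border-type cells, while the 2 Rbpj-deleted libraries differed widely, at 66.7% and 29.0%.

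Few cells lay at the limits of the rule. In the Rbpj-deleted libraries 13 and 15 kept cells had B+D of exactly 5, against 7 and 0 in the healthy libraries, and 26 and 20 cells with B+D of 4 were left out of the Rbpj-deleted libraries, against 5 and 3 of the healthy ones. The limit on lymphocyte counts removed more: 294 and 313 cells in the Rbpj-deleted libraries and 166 and 67 in the healthy ones failed that limit alone. The limit on dendritic counts alone removed 110 and 82 cells in the Rbpj-deleted libraries and 45 and 32 in the healthy ones. Median B per cell was 17 and 1 in the Rbpj-deleted libraries and 64 and 72.5 in the healthy ones. Median D per cell was 2 and 25 in the Rbpj-deleted libraries and 0 in both healthy ones. No doublet caller was run. Of the kept cells, 1 in each healthy library shared its barcode sequence with a kept cell of the other.

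The kept cells carried macrophage markers in every library. Summed over 12 markers, among them Csf1r, Adgre1 and Cd68, the level was 26350 and 35610 CPM in the Rbpj-deleted libraries, 29310 and 27760 CPM in the control libraries, and 16960 and 17220 CPM in the healthy ones. Levels are CPM, that is UMI counts of a gene relative to all counts of the cells summed, scaled by edgeR's trimmed mean of M values (TMM). The 10 microglial markers outside the rule summed to 19510 and 14680 CPM in the Rbpj-deleted libraries and 33550 and 15750 CPM in the healthy ones. They include Cst3, which other macrophages also express. P2ry12, a purinergic receptor used to mark microglia, was near 0, at 0.534 and 0.812 CPM in the Rbpj-deleted libraries and 2.26 and 3.40 CPM in the healthy ones. The 6 M genes of the rule summed to 623 and 632 CPM in the Rbpj-deleted libraries and 1391 and 383.6 CPM in the healthy ones. The low P2ry12 therefore does not show that microglial RNA was absent. Sall1, a microglial transcription factor, was present in both groups at 71.7 and 30.0 CPM in the Rbpj-deleted libraries and 85.7 and 28.6 CPM in the healthy ones, and the part of microglial RNA in the results was not tested. The 13 T and natural killer cell markers summed to 97.7 and 56.2 CPM in the Rbpj-deleted libraries and 40.9 and 37.8 CPM in the healthy ones, with Cd247 at 0 throughout. The 8 neutrophil markers summed to 1014 and 423.8 CPM in the Rbpj-deleted libraries and 1532 and 4715 CPM in the healthy ones. In monocyte-derived-type cells of healthy library 2 they reached 28260 CPM, since 1 of its 33 cells held 8503 neutrophil marker counts among 20370. Of 9 dendritic cell markers tested over all cells Clec9a, Batf3 and Ccl22 rose, and the sum of the 10 was 571 and 356 CPM in the Rbpj-deleted libraries and 626 and 301 CPM in the healthy ones. Clec9a, a receptor of cross-presenting dendritic cells, had 9.96 and 10.2 CPM in the Rbpj-deleted libraries and 0 and 0 CPM in the healthy ones. Oligodendrocyte markers summed to 43.8 and 38.3 CPM in the Rbpj-deleted libraries and 81.9 and 46.3 CPM in the healthy ones.

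The rule's own genes described the mix. Mrc1 had 1443 and 499 CPM in the Rbpj-deleted libraries and 2782 and 3584 CPM in the healthy ones, and Lyve1 had 89.0 and 86.2 CPM in the Rbpj-deleted libraries and 812 and 843 CPM in the healthy ones. Within border-type cells alone, the summed level of the 5 B genes was 4092 and 4009 CPM in the Rbpj-deleted libraries, 4975 and 4016 CPM in the control libraries, and 8720 and 10720 CPM in the healthy ones. These genes chose and typed the cells, so the values are a description only. Lyz1, a lysozyme gene, had 846 and 698 CPM in the Rbpj-deleted libraries and 9.18 and 6.43 CPM in the healthy ones within monocyte-derived-type cells. Plac8, a gene of monocytes, had 2123 and 3172 CPM in the Rbpj-deleted libraries and 3358 and 3790 CPM in the healthy ones there.

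Rbpj itself (ENSMUSG00000039191, chromosome 5:53466152-53657362) had 85.0 and 50.3 CPM in the Rbpj-deleted libraries, 61.2 and 89.9 CPM in the control libraries and 62.6 and 109 CPM in the healthy ones. The groups overlapped, and the log2 fold change of the Rbpj-deleted libraries over the healthy ones was -0.33 ± 0.36 (standard error, SE; adjusted p = 0.655). Of its 31-base stretches 11.4% also occur in other genes. Trp53 (ENSMUSG00000059552, chromosome 11:69580359-69591873) had 71.3 and 86.4 CPM in the Rbpj-deleted libraries, 68.3 and 67.5 CPM in the control libraries and 61.4 and 53.1 CPM in the healthy ones, with a log2 fold change of 0.46 ± 0.21 and an adjusted p of 0.251. The sequenced cells were sorted immune cells, and whether the genes were deleted in them was not given, so these levels cannot be read as a check of the labels.

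Counts were summed per library and tested with edgeR's quasi-likelihood test over all 6 libraries, and p-values were adjusted by Benjamini and Hochberg's method over all genes tested. Every adjusted p below is of this kind unless another tool is named, and a gene was called at an adjusted p under 0.05. Over all cells 554 of 10915 genes were called (5.08%), of which 371 were higher (3.4%) and 183 lower (1.68%) in the Rbpj-deleted libraries. In border-type cells 539 of 9522 genes were called (5.66%), 364 higher (3.82%) and 175 lower (1.84%). In monocyte-derived-type cells 396 of 8445 genes were called (4.69%), 225 higher (2.66%) and 171 lower (2.02%). The 2 groups' libraries did not overlap in 55.1%, 51.5% and 52.5% of the genes tested, so non-overlap alone is common here. The genes named below as largest rises and falls over all cells were chosen partly for it. Their non-overlap over all cells is therefore not a further result. At an unadjusted p under 0.05 there were 2283, 1858 and 1643 genes. Replicates moved these counts. The count over all cells was 205 without Rbpj-deleted library 2, 167 without healthy library 1 and 307 without healthy library 2. In border-type cells it was 292 and 187 without Rbpj-deleted libraries 1 and 2 and 259 without healthy library 1. For monocyte-derived-type cells it was 258 without Rbpj-deleted library 2 and 168 without healthy library 1. Earlier results of these data grouped healthy library 1 with the control libraries and healthy library 2 with the Rbpj-deleted ones. With this library split as a batch term, which rests the contrast on healthy library 2 alone, 171, 273 and 191 genes were called over all cells, in border-type and in monocyte-derived-type cells. With scaling to library size in place of TMM the median gene shifted by -0.29 on the log2 scale over all cells, and 265 genes were higher and 340 lower. In border-type cells that scaling shifted the median by -0.23, with 260 genes higher and 340 lower, and in monocyte-derived-type cells 165 were higher and 234 lower.

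Genes of the interferon-gamma response were higher in the Rbpj-deleted libraries in both types. Of the 19 list members tested over all cells 16 rose and none fell, with a median log2 fold change of 3.26, against -0.01 over all genes. In border-type cells 14 of 18 rose (median 2.93), and in monocyte-derived-type cells 10 of 17 rose (median 2.87). Leaving out 1 library gave 12 to 16, 10 to 15 and 7 to 11 such genes. The list was chosen with earlier results of these data known, so its counts are not independent evidence of its direction, and the same holds for every list below. List members named below beyond the 4 of smallest p were chosen after their values were seen. The T and natural killer marker sum given above was higher in the Rbpj-deleted libraries, and its part in these results was not tested.

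Cxcl9 (ENSMUSG00000029417, chromosome 5:92321347-92328079), a chemokine that draws T cells through CXCR3, had 1748 and 2372 CPM in the Rbpj-deleted libraries, 3872 and 3019 CPM in the control libraries and 6.11 and 4.42 CPM in the healthy ones. Both tumour groups were far above both healthy libraries, and the log2 fold change of the Rbpj-deleted libraries over the healthy ones was 8.57 ± 0.46 (SE, n = 2 libraries a side; adjusted p = 0.000167). In border-type cells it had 1396 and 1876 CPM in the Rbpj-deleted libraries and 6.70 and 2.33 CPM in the healthy ones, a log2 fold change of 8.35 ± 0.48 (adjusted p = 6.09e-06). In monocyte-derived-type cells it had 2478 and 2505 CPM in the Rbpj-deleted libraries and 0 and 22.5 CPM in the healthy ones, with 7 counts in all in the healthy libraries, and a log2 fold change of 7.97 ± 0.91 (adjusted p = 0.00618). That call was lost at an adjusted p of 0.0687 without Rbpj-deleted library 1 and 0.0734 without Rbpj-deleted library 2.

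The guanylate-binding proteins are interferon-induced GTPases that attack the vacuoles of intracellular microbes. Gbp2b (ENSMUSG00000040264, chromosome 3:142594847-142619179) had 204 and 168 CPM in the Rbpj-deleted libraries, 368 and 194 CPM in the control libraries and 0.133 and 0.340 CPM in the healthy ones. The healthy libraries held 1 count each, and the ratio of scaled counts was 797 (95% counting interval 220.4 to 6586), with an adjusted p of 0.000167. Gbp4 had 24.4 and 34.1 CPM in the Rbpj-deleted libraries, 107 and 68.6 CPM in the control libraries and 0.531 and 0.681 CPM in the healthy ones, a log2 fold change of 5.59 ± 0.44 (adjusted p = 0.000287). Gbp3 had 159.9 and 209 CPM in the Rbpj-deleted libraries and 22.5 and 21.8 CPM in the healthy ones. Gbp5 had 137 and 176 CPM in the Rbpj-deleted libraries and 13.2 and 26.2 CPM in the healthy ones. Their log2 fold changes were 3.06 ± 0.26 and 3.02 ± 0.34 (adjusted p = 0.000416 and 0.00199). For these 4 genes both Rbpj-deleted libraries were above both healthy libraries. In monocyte-derived-type cells Gbp5 rose by 3.75 ± 0.35 on the log2 scale (adjusted p = 0.000346) and Gbp3 by 1.86 ± 0.29 (adjusted p = 0.00607, and 0.0511 with the library split as a batch and 0.0626 without healthy library 1).

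The regulators Irf1 and Socs1 of the same response rose too. Irf1, a transcription factor that interferon-gamma induces, rose by 2.49 ± 0.28 and 3.10 ± 0.40 in the 2 types (adjusted p = 0.000329 and 0.00232). Socs1, which restrains signalling by the interferon receptor, had 42.9 and 83.6 CPM in the Rbpj-deleted libraries and 6.25 and 6.13 CPM in the healthy ones and rose by 3.35 ± 0.42 (adjusted p = 0.00457). Irf8, a transcription factor of the myeloid lineage, was in the same list and was not called, at 29.4 and 32.3 CPM in the Rbpj-deleted libraries and 14.3 and 20.4 CPM in the healthy ones (adjusted p = 0.0969).

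Cd274, which encodes the T cell inhibitory ligand PD-L1, rose in border-type cells and was not called in monocyte-derived-type cells. In border-type cells it had 104 and 64.4 CPM in the Rbpj-deleted libraries, 208 and 109 CPM in the control libraries and 5.68 and 6.98 CPM in the healthy ones, a log2 fold change of 3.77 ± 0.38 (adjusted p = 0.000329). In monocyte-derived-type cells it had 139 and 107 CPM in the Rbpj-deleted libraries, 188 and 156 CPM in the control libraries and 82.6 and 32.1 CPM in the healthy ones, with a log2 fold change of 1.05 ± 0.38 (adjusted p = 0.160). Both healthy libraries were below both Rbpj-deleted ones in each type, by less in monocyte-derived-type cells.

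**Figure D2:**
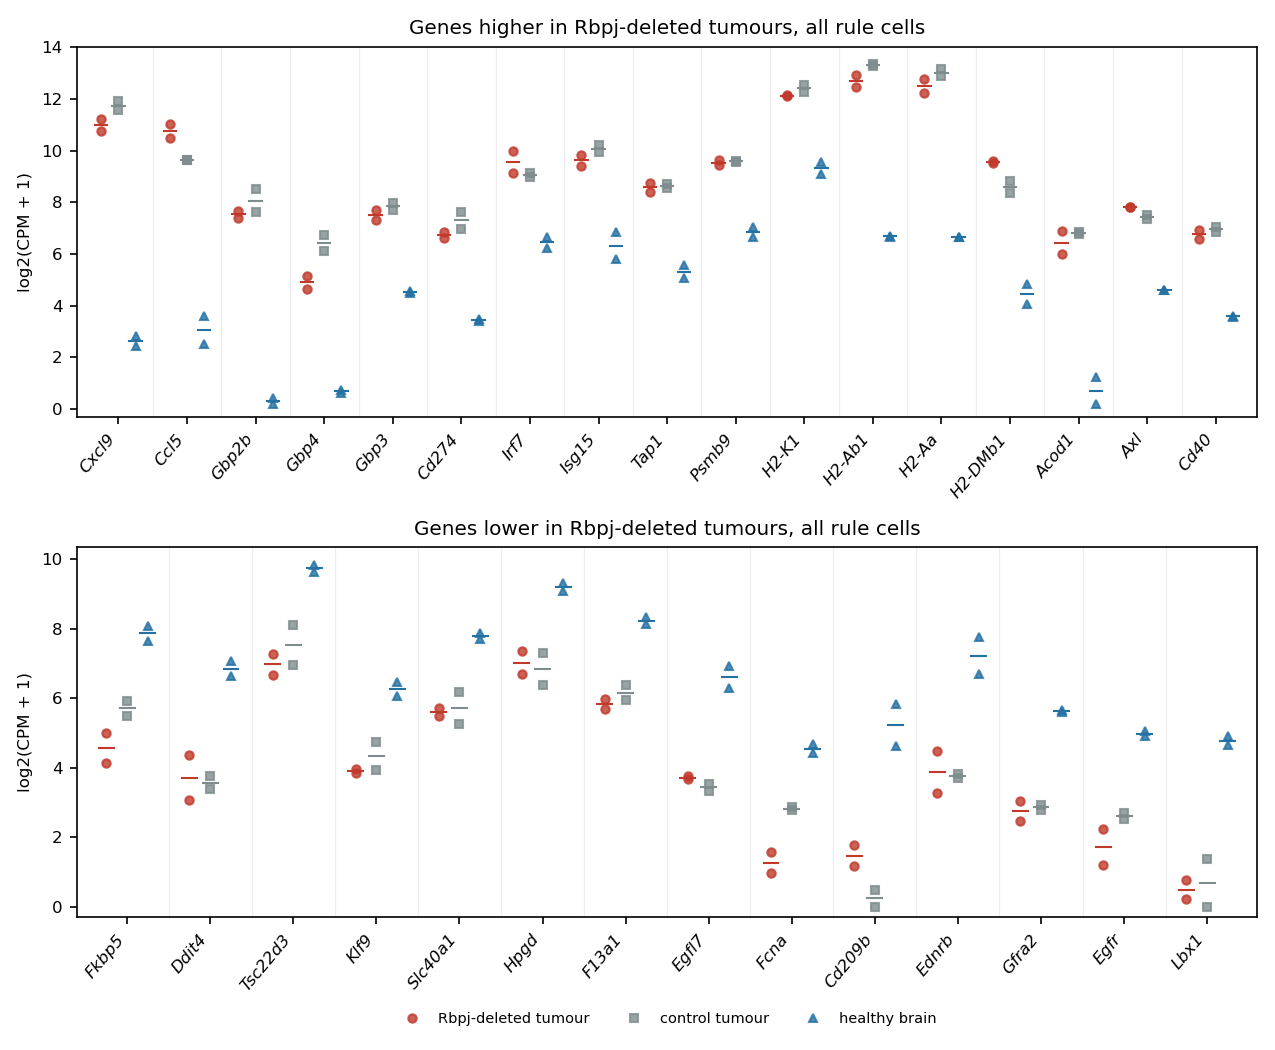
Level of named genes in each library over all cells meeting the rule, as log2(CPM + 1), where points are libraries and short lines are the mean of 2 libraries. In each gene shown the 2 Rbpj-deleted libraries lie on 1 side of the 2 healthy libraries, above them in the upper panel and below them in the lower panel, and the control libraries are shown for comparison. Part of these genes were chosen for that non-overlap, which 55.1% of all genes tested over all cells had.

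Part of the type I interferon response genes rose as well. Over all cells 11 of 24 rose and none fell (median log2 fold change 1.42), in border-type cells 11 of 24 (median 1.17) and in monocyte-derived-type cells 9 of 24 (median 1.76). Without Rbpj-deleted library 2 the first count was 4, without healthy library 1 it was 7, and in border-type cells it was 5, 4 and 7 without Rbpj-deleted library 1, Rbpj-deleted library 2 and healthy library 1. Within monocyte-derived-type cells the count was 5 without healthy library 1 and 14 with a replicate block, and with library-size scaling the counts in the 2 types were 7 and 5. Isg15 (ENSMUSG00000035692, chromosome 4:156199424-156200818), a ubiquitin-like protein attached to other proteins, had 682 and 924 CPM in the Rbpj-deleted libraries, 995 and 1185 CPM in the control libraries and 54.7 and 115 CPM in the healthy ones. It rose by 3.25 ± 0.41 on the log2 scale over all cells (adjusted p = 0.00342) and by 3.93 ± 0.43 in monocyte-derived-type cells (adjusted p = 0.000922). In border-type cells it rose by 2.49 ± 0.38 (adjusted p = 0.00542, and 0.0668 without Rbpj-deleted library 1 and 0.0580 without Rbpj-deleted library 2). Irf7, the transcription factor that amplifies type I interferon, had 564 and 1007 CPM in the Rbpj-deleted libraries, 512 and 562 CPM in the control libraries and 74.8 and 101 CPM in the healthy ones and rose by 2.62 ± 0.28 and 2.45 ± 0.34 in border-type and monocyte-derived-type cells (adjusted p = 0.000274 and 0.00355). Oas3, an enzyme that senses double-stranded RNA, had 51.3 and 49.6 CPM in the Rbpj-deleted libraries and 4.08 and 6.98 CPM in the healthy ones in border-type cells, a rise of 3.27 ± 0.35 (adjusted p = 0.000279). The antiviral genes Ifit1, Mx1 and Usp18 were not called over all cells. Ifit1 had 61.5 and 108 CPM in the Rbpj-deleted libraries and 19.3 and 41.5 CPM in the healthy ones (adjusted p = 0.303).

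The promoter windows of 4 genes that rose in both types or over all cells are shown because they hold the letters that interferon-activated factors bind. Each runs from 250 bases before to 50 bases after the start of the gene, in RefSeq's GRCm38.p6, 5′ to 3′ on the gene's strand. Capitals mark the interferon-stimulated response element, searched as GAAA, any 2 bases and GAAA again, or TTCNNNGAA, the gamma-activated site, both searched on both strands. In Isg15 3 overlapping elements form the capital run at chr4:156200769-156201068 (minus strand).
Isg15: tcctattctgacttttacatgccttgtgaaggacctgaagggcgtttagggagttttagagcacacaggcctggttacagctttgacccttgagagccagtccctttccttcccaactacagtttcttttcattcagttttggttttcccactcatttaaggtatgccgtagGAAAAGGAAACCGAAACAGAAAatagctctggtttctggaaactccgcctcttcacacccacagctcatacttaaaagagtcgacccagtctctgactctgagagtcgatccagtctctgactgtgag
Gbp5 held 1 response element and 2 gamma-activated sites at chr3:142496684-142496983 (plus strand).
Gbp5: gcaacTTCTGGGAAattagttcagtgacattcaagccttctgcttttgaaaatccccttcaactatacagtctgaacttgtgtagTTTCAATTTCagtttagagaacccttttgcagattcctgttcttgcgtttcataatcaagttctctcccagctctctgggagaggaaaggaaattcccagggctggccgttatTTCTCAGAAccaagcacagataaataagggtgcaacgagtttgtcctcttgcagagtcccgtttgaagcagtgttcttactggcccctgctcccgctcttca
Gbp3 held 2 overlapping response elements at chr3:142559794-142560093 (plus strand), and its other listed window held none.
Gbp3: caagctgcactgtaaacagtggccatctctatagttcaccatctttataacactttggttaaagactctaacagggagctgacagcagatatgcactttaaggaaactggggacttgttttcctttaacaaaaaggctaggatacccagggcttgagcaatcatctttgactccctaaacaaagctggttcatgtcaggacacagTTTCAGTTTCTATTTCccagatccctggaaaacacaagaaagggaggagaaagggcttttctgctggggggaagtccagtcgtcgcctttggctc
Gbp2b held 1 response element at chr3:142594597-142594896 (plus strand).
Gbp2b: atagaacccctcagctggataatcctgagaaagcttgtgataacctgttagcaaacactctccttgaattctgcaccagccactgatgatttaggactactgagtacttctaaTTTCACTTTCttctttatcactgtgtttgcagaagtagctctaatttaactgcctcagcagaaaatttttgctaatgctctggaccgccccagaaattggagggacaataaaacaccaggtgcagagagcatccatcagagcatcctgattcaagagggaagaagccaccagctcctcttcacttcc
The response element was found in 3.99% of 27025 genes with RefSeq promoter windows, in 4.36% of the 6376 genes with a window among those tested in both types, and in 13 of 88 (14.8%) among those called higher in both. None of 10 genes with a window among those called lower in both held it. A gene counts once where any of its windows matches. The letters of the gamma-activated site were in 9.55%, 7.98%, 12 of 88 (13.6%) and 0 of 10. A match is a description of the letters and not evidence of binding.

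Genes of class I antigen presentation, which shows peptides made inside the cell to CD8 T cells, rose broadly. Over all cells 13 of 17 rose and none fell (median log2 fold change 2.18), in border-type cells 13 of 17 (median 2.07) and in monocyte-derived-type cells 11 of 17 (median 1.49). Without healthy library 1 the first count was 6 and without healthy library 2 it was 8. Among the 11 in monocyte-derived-type cells there were 6 without Rbpj-deleted library 2, 5 without healthy library 1 and 7 without healthy library 2. Tap1 (ENSMUSG00000037321, chromosome 17:34187553-34197225), a subunit of the transporter that loads peptides, had 340.1 and 431 CPM in the Rbpj-deleted libraries, 420.2 and 374 CPM in the control libraries and 32.3 and 46.3 CPM in the healthy ones, a log2 fold change of 3.30 ± 0.30 (adjusted p = 0.000657). Psmb9, a subunit of the immunoproteasome that cuts the peptides, had 694 and 796 CPM in the Rbpj-deleted libraries, 783 and 757 CPM in the control libraries and 101 and 130.4 CPM in the healthy ones and rose by 2.69 ± 0.29 (adjusted p = 0.00141). H2-K1, a classical class I heavy chain, had 4401 and 4510 CPM in the Rbpj-deleted libraries and 747 and 549 CPM in the healthy ones and rose by 2.78 ± 0.34 (adjusted p = 0.00298). H2-Q7, a non-classical heavy chain, had 322 and 278 CPM in the Rbpj-deleted libraries and 17.1 and 15.3 CPM in the healthy ones and rose by 4.20 ± 0.28 (adjusted p = 0.000167). The 2 heavy chains are uncertain, since 22.8% of the 31-base stretches of H2-K1 and 39.1% of those of H2-Q7 also occur in other genes. All 4 genes rose in both types. Erap1, Calr and Pdia3, which trim or fold the complex, were not called in any of the 3 tests, for example Calr at 990 and 1336 CPM in the Rbpj-deleted libraries and 886 and 730.2 CPM in the healthy ones (adjusted p = 0.345). H2-T23 had 699 and 632 CPM in the Rbpj-deleted libraries and 22.7 and 175 CPM in the healthy ones and was not called (adjusted p = 0.170), with its 2 healthy libraries far apart. Strain was not given, and its part in the levels of the class I genes was not tested.

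Class II genes, which show ingested peptides to CD4 T cells, had the largest median of the presentation lists. Over all cells 6 of 11 rose and none fell (median log2 fold change 4.37), with 6 of 10 in border-type cells (median 4.75) and 7 of 10 in monocyte-derived-type cells (median 3.67). Leaving out 1 library gave 5 to 8 over all cells and in border-type cells, and 7 each time in monocyte-derived-type cells. H2-Ab1 (ENSMUSG00000073421, chromosome 17:34257689-34269419), the beta chain of the I-A molecule, had 7898 and 5702 CPM in the Rbpj-deleted libraries, 9843 and 10490 CPM in the control libraries and 104 and 100.4 CPM in the healthy ones. H2-Aa (ENSMUSG00000036594, chromosome 17:34282744-34287823), its alpha chain, had 7094 and 4844 CPM in the Rbpj-deleted libraries, 7524 and 9103 CPM in the control libraries and 101 and 101 CPM in the healthy ones. The 2 healthy libraries were well below every tumour library. Dendritic cells carry these genes at high level, and the part of dendritic cell RNA in these rises was not tested. The log2 fold changes of the Rbpj-deleted libraries over the healthy ones were 6.06 ± 0.40 and 5.88 ± 0.41 (adjusted p = 0.000167 and 0.000178). Cd74, the chaperone of newly made class II pairs, had 14180 and 10550 CPM in the Rbpj-deleted libraries, 20090 and 22610 CPM in the control libraries and 299 and 431 CPM in the healthy ones and rose by 5.08 ± 0.42 (adjusted p = 0.000416). H2-DMa and H2-DMb1 encode the pair that exchanges the invariant peptide for antigen. H2-DMa had 1019 and 1201 CPM in the Rbpj-deleted libraries and 33.4 and 75.2 CPM in the healthy ones, a rise of 4.37 ± 0.43 (adjusted p = 0.00108). H2-DMb1 had 772 and 741 CPM in the Rbpj-deleted libraries and 27.9 and 15.7 CPM in the healthy ones, a rise of 5.09 ± 0.38 (adjusted p = 0.000240). Of the stretches of H2-DMb1 31.4% also occur in other genes. In monocyte-derived-type cells the calls of H2-Ab1, H2-Aa and Cd74 were lost with M of at most 1, at adjusted p = 0.248, 0.339 and 0.234. H2-Eb1, the beta chain of I-E, was not called (adjusted p = 0.109), and the healthy libraries differed widely from each other. It had 9930 and 6650 CPM in the Rbpj-deleted libraries, 177 and 156 CPM in the control libraries and 2.13 and 91.6 CPM in the healthy ones. Against H2-Ab1 of the same libraries it was low in the control libraries and healthy library 1, which is the library split given above. Strain was not given, so a difference of strain between libraries and one of regulation cannot be told apart for H2-Eb1. Ciita, the coactivator of class II genes, had 2.49 and 3.25 CPM in the Rbpj-deleted libraries and 0.133 and 0.340 CPM in the healthy ones, with 2 counts in the healthy libraries and a ratio of scaled counts of 12.4 (95% counting interval 3.18 to 107). Its adjusted p of 0.0413 became 0.0933 and 0.289 without Rbpj-deleted libraries 1 and 2 and 0.355 and 0.101 without healthy libraries 1 and 2. It was too low to be tested within either type.

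The promoter window of H2-Aa is shown because it holds CTGATTGG, the Y box of class II promoters, in capitals, at chr17:34287774-34288073 (GRCm38.p6, minus strand, RefSeq).
H2-Aa: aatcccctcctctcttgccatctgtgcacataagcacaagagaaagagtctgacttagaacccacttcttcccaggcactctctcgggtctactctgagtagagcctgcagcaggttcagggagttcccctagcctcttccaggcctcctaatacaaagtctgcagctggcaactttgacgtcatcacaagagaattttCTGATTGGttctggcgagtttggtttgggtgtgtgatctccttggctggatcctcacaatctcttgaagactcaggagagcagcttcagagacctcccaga
Searched on both strands, these letters were in windows of 4.7% of the 27025 genes, of 6.32% of the 6376 tested in both types, and of 11 of the 88 (12.5%) called higher in both. That share does not describe class II genes. Of the class II list members among the 88, H2-Aa held the letters and H2-DMa, H2-DMb1 and Ifi30 did not. Genes outside that list that held them included Cxcl9, Psmb9 and H2-K1.

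Of 24 chemokine and cytokine genes tested over all cells Ccl5, Cxcl16, Il1b and Tnf rose and Ccl24 fell. In border-type cells Ccl5, Cxcl16, Cxcl13 and Ccl8 rose and Ccl9 fell, of 23 tested. In monocyte-derived-type cells Ccl5, Cxcl16, Ccl7, Ccl12, Il1b and Tnf rose, of 23 tested, and none fell. The median log2 fold changes were 1.23, 1.32 and 2.76. Over all cells the call of Il1b was lost without healthy library 1 (adjusted p = 0.0694) and that of Tnf without Rbpj-deleted library 1 or healthy library 1 (adjusted p = 0.0634 and 0.188). The calls of Ccl24 and Ccl9 (adjusted p = 0.0339 and 0.0473) were lost without any 1 Rbpj-deleted or healthy library, at 0.0667 to 0.228 and 0.0521 to 0.253. Without Rbpj-deleted library 2 the higher counts were 10 over all cells and 9 in border-type cells, and without healthy library 1 the count over all cells was 2.

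Ccl5 (ENSMUSG00000035042, chromosome 11:83525778-83530518), which attracts T cells and monocytes and is also made by T cells, had 1427 and 2105 CPM in the Rbpj-deleted libraries, 799.9 and 789 CPM in the control libraries and 11.2 and 4.77 CPM in the healthy ones. Both tumour groups were above both healthy libraries, and the Rbpj-deleted libraries above the control ones, a difference that was not tested here. It rose by 7.72 ± 0.51 on the log2 scale (adjusted p = 0.000167), and in border-type cells by 7.38 ± 0.48 (adjusted p = 2.55e-05). In monocyte-derived-type cells the healthy libraries held 3 counts, and the ratio of scaled counts was 429 (95% counting interval 147 to 2081) (adjusted p = 0.000346). Cxcl16, the membrane-bound ligand of CXCR6, had 488 and 572 CPM in the Rbpj-deleted libraries, 469 and 506 CPM in the control libraries and 95.3 and 102 CPM in the healthy ones in border-type cells. Within monocyte-derived-type cells Cxcl16 had 730 and 787 CPM in the Rbpj-deleted libraries, 412 and 554 CPM in the control libraries and 29.8 and 22.5 CPM in the healthy ones. No tumour library overlapped the healthy ones in either type. Its log2 fold changes were 2.43 ± 0.24 and 4.83 ± 0.36 (adjusted p = 0.000159 and 0.000119). In border-type cells Ccl8 (ENSMUSG00000009185, chromosome 11:82115185-82116799), a ligand of several CC chemokine receptors, had 8878 and 4212 CPM in the Rbpj-deleted libraries, 10830 and 12670 CPM in the control libraries and 464 and 918 CPM in the healthy ones and rose by 3.24 ± 0.45 (adjusted p = 0.00277). Cxcl13, which attracts B cells, had 64.7 and 37.6 CPM in the Rbpj-deleted libraries, 4.37 and 0 CPM in the control libraries and 0 and 0 CPM in the healthy ones there. It had 302 counts in the Rbpj-deleted libraries and 0 in the healthy ones, at least 151-fold higher against a floor of 3 counts over both healthy libraries (adjusted p = 0.000225).

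Ccl12 and Ccl7, which attract monocytes, were called in monocyte-derived-type cells and not in border-type cells. The difference between the types was not called for either by limma (adjusted p = 0.387 for Ccl12 and 0.369 for Ccl7), and was called by an edgeR interaction chosen after seeing the data (adjusted p = 0.000311 for Ccl12 and 0.000454 for Ccl7). Ccl12 had 599 and 693 CPM in the Rbpj-deleted libraries, 288 and 577 CPM in the control libraries and 73.4 and 35.4 CPM in the healthy ones there, a log2 fold change of 3.54 ± 0.45 (adjusted p = 0.00260). In border-type cells Ccl12 had 1695 and 2586 CPM in the Rbpj-deleted libraries and 1347 and 1071 CPM in the healthy ones and was not called (adjusted p = 0.237). Ccl7 had 153 and 109 CPM in the Rbpj-deleted libraries and 4.59 and 0 CPM in the healthy ones in monocyte-derived-type cells. Its healthy libraries held 2 counts, the ratio of scaled counts was 38.0 (95% counting interval 10.5 to 315) and the adjusted p was 0.00161, or 0.116 with M of at most 1. In border-type cells Ccl7 was high in both groups at 855 and 904 CPM in the Rbpj-deleted libraries and 1049 and 490.4 CPM in the healthy ones (adjusted p = 0.820). Il1b, the gene of interleukin 1 beta, had 3364 and 2330 CPM in the Rbpj-deleted libraries and 236 and 283 CPM in the healthy ones in monocyte-derived-type cells and rose by 3.46 ± 0.44 (adjusted p = 0.00233). Tnf, the gene of tumour necrosis factor, had 288 and 189.5 CPM in the Rbpj-deleted libraries and 20.6 and 19.3 CPM in the healthy ones there and rose by 3.57 ± 0.36 (adjusted p = 0.000565). Neither was called in border-type cells, where the Rbpj-deleted libraries lay above the healthy ones but far apart. Il1b had 1483 and 445 CPM in the Rbpj-deleted libraries and 125 and 188 CPM in the healthy ones there (adjusted p = 0.0572). Tnf had 287 and 119 CPM in the Rbpj-deleted libraries and 56.2 and 94.7 CPM in the healthy ones there (adjusted p = 0.161). Of 16 chemokine and cytokine receptors none was called over all cells or in monocyte-derived-type cells, and of 14 in border-type cells Il4ra alone, at an adjusted p of 0.0491 that became 0.0617 to 0.300 without any 1 library. For the receptors edgeR's unadjusted p was under 0.05 for 5 of 16 genes over all cells and 5 of 15 in monocyte-derived-type cells, and DESeq2 called 1 and 2.

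**Figure D3:**
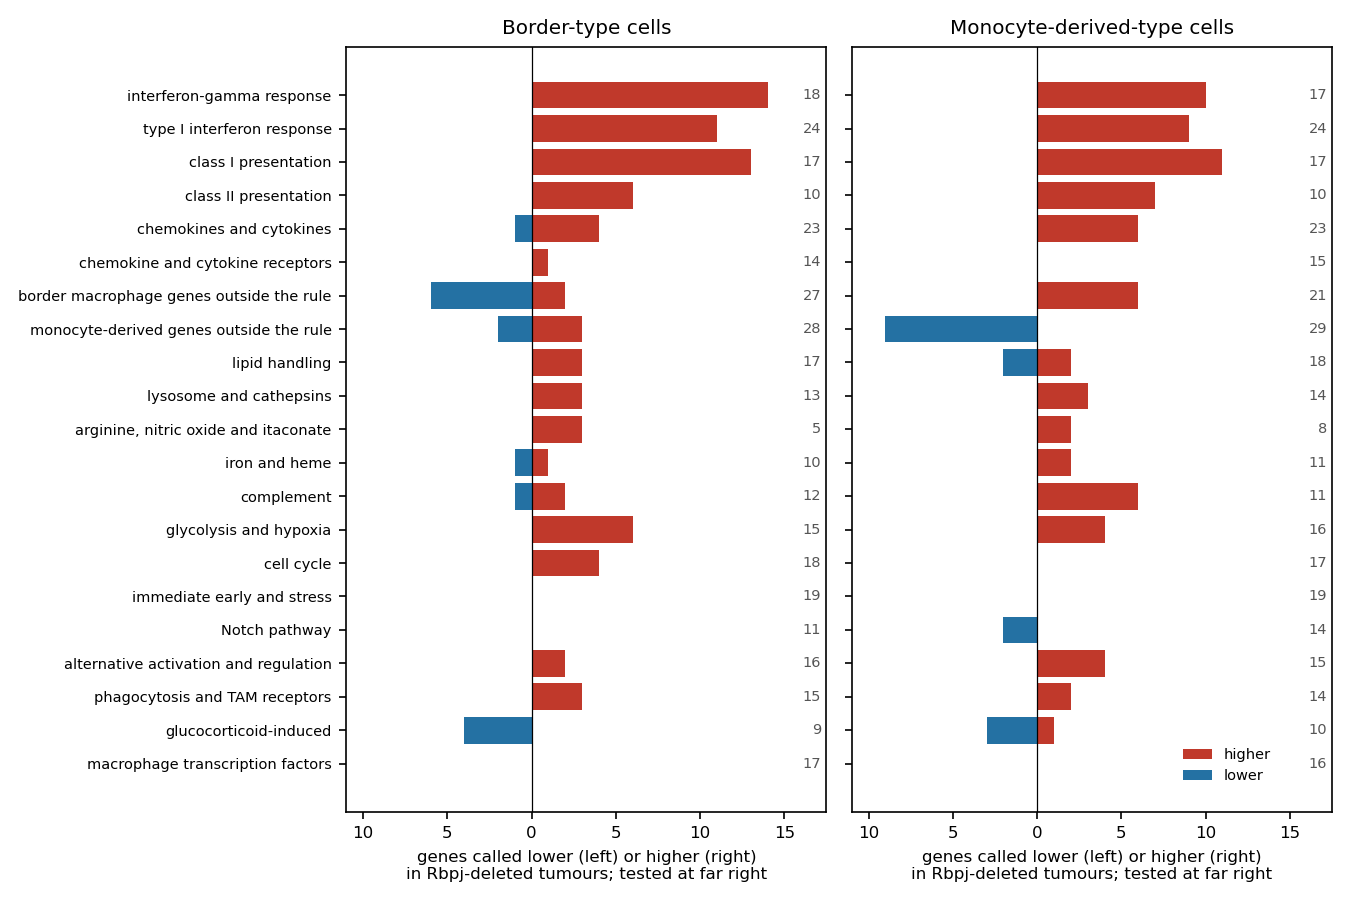
Number of genes of each list called higher (to the right) or lower (to the left) in the Rbpj-deleted libraries than in the healthy ones, within border-type cells (left panel) and monocyte-derived-type cells (right panel), with the number tested at the far right. The interferon and antigen presentation lists were called higher in both types, while 6 border macrophage genes were called lower in border-type cells and 9 monocyte-derived genes lower in monocyte-derived-type cells.

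Border macrophage genes outside the rule were lower over all cells. Of 28 tested 9 fell and none rose (median log2 fold change -1.13). The share of border-type cells was lower too, and over all cells fewer such cells and less RNA in each cannot be told apart. The same limit holds within border-type cells, whose mix may differ between the groups. There the 5 D genes summed to 235.8 and 429.3 CPM in the Rbpj-deleted libraries and 99.22 and 150.5 CPM in the healthy ones. In border-type cells 6 of 27 fell and 2 rose (median -0.82), and in monocyte-derived-type cells 6 of 21 rose and none fell (median 1.01). Without Rbpj-deleted library 2 the first count was 4. In border-type cells the lower count was 1 and 2 without Rbpj-deleted libraries 1 and 2, while M of at most 1 gave 10 lower and 4 higher. In monocyte-derived-type cells the higher count was 3 without Rbpj-deleted library 2 or healthy library 1. Egfl7 (ENSMUSG00000026921, chromosome 2:26580014-26593120), a secreted protein first described in endothelium, had 12.4 and 11.8 CPM in the Rbpj-deleted libraries, 9.02 and 10.7 CPM in the control libraries and 78.1 and 119.8 CPM in the healthy ones, a log2 fold change of -3.02 ± 0.28 over all cells (adjusted p = 0.000735). In border-type cells it had 14.8 and 26.2 CPM in the Rbpj-deleted libraries and 82.3 and 135 CPM in the healthy ones and a log2 fold change of -2.44 ± 0.36 (adjusted p = 0.00360, and 0.0503 without Rbpj-deleted library 1).

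Fcna, the lectin ficolin A of the complement system, had 3.02 and 3.42 CPM in the Rbpj-deleted libraries and 22.4 and 27.9 CPM in the healthy ones in border-type cells, a log2 fold change of -2.96 ± 0.44 (adjusted p = 0.00248, and 0.0545 without Rbpj-deleted library 1). Ednrb, the endothelin B receptor, had 32.1 and 22.8 CPM in the Rbpj-deleted libraries and 111 and 244 CPM in the healthy ones there, with a log2 fold change of -2.66 ± 0.46 (adjusted p = 0.0188, and 0.125 without Rbpj-deleted library 1 and 0.253 without Rbpj-deleted library 2). For Egfl7, Fcna and Ednrb the 2 groups did not overlap. Fcrls, an Fc receptor-like gene also expressed by microglia, had 609.8 and 878 CPM in the Rbpj-deleted libraries and 2340 and 1783 CPM in the healthy ones and a log2 fold change of -1.47 ± 0.30 (adjusted p = 0.0165, and 0.0649 with the library split as a batch, 0.115 without Rbpj-deleted library 1, 0.0574 without Rbpj-deleted library 2 and 0.0708 without healthy library 1). F13a1, a clotting factor subunit used as a border macrophage marker, had 61.5 and 50.2 CPM in the Rbpj-deleted libraries and 279 and 324 CPM in the healthy ones over all cells (-2.43 ± 0.26, adjusted p = 0.00134, and 0.180 with equal weight of the types). In border-type cells alone F13a1 had 92.1 and 129 CPM in the Rbpj-deleted libraries and 305 and 365 CPM in the healthy ones and was not called (adjusted p = 0.0978). The lectin receptor gene Cd209b had 1.25 and 2.44 CPM in the Rbpj-deleted libraries and 23.5 and 55.8 CPM in the healthy ones over all cells and fell (-4.38 ± 0.55, adjusted p = 0.00457). The 2 genes that rose in border-type cells were Siglec1, an adhesion receptor induced by interferon, and Pla2g2d, a secreted phospholipase. Pla2g2d had an adjusted p of 0.0473, or 0.215 without Rbpj-deleted library 1 and 0.217 and 0.124 without healthy libraries 1 and 2. Siglec1 had 102 and 66.1 CPM in the Rbpj-deleted libraries and 35.4 and 39.6 CPM in the healthy ones there (1.18 ± 0.25, adjusted p = 0.0203, and 0.138 with the library split as a batch, 0.126 without Rbpj-deleted library 1, 0.147 without healthy library 1 and 0.0521 without healthy library 2). Cd209f was not called and had 293 and 203 CPM in the Rbpj-deleted libraries and 215 and 214 CPM in the healthy ones in border-type cells (adjusted p = 0.910).

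Members of this list that rose in monocyte-derived-type cells included Apoe and Ms4a7. Apoe, which carries lipids and is induced as monocytes become macrophages, had 509.7 and 548 CPM in the Rbpj-deleted libraries, 202 and 441 CPM in the control libraries and 106 and 57.9 CPM in the healthy ones and rose by 2.67 ± 0.43 (adjusted p = 0.00933). Ms4a7, a membrane gene used to mark border and tumour macrophages, had 323 and 548 CPM in the Rbpj-deleted libraries and 50.5 and 6.43 CPM in the healthy ones (3.83 ± 0.64, adjusted p = 0.0201, and 0.0629 without control library 1, 0.0662 without control library 2 and 0.0994 with B+D of at least 10). The Rbpj-deleted libraries were above the healthy ones for both Apoe and Ms4a7.

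Of 29 monocyte-derived genes outside the rule tested in monocyte-derived-type cells 9 fell and none rose, with a median log2 fold change of -1.18. Without healthy library 2 the count was 4. Ace (ENSMUSG00000020681, chromosome 11:105967945-105989964), angiotensin-converting enzyme, had 27.7 and 22.4 CPM in the Rbpj-deleted libraries, 45.6 and 68.0 CPM in the control libraries and 317 and 334 CPM in the healthy ones, and all 4 tumour libraries were below both healthy ones. Its log2 fold change was -3.71 ± 0.30 (adjusted p = 0.000162). Adgre4, an adhesion receptor, had 29.3 and 38.1 CPM in the Rbpj-deleted libraries, 38.5 and 48.6 CPM in the control libraries and 169.8 and 206 CPM in the healthy ones and fell, at -2.46 ± 0.28 (adjusted p = 0.00135). Treml4, an innate receptor, had 48.7 and 57.8 CPM in the Rbpj-deleted libraries and 314 and 148 CPM in the healthy ones (-2.13 ± 0.35, adjusted p = 0.00808, and 0.0653 without healthy library 1). These 3 genes mark circulating patrolling monocytes in mouse blood. The monocyte-derived-type may thus hold a different mix of monocytes and macrophages in the 2 groups. For the rises and falls in this type that mix and a change within such cells cannot be told apart. Itga4, the alpha 4 integrin of monocyte arrest, had 95.8 and 122 CPM in the Rbpj-deleted libraries and 279.9 and 373 CPM in the healthy ones (-1.58 ± 0.28, adjusted p = 0.0123, and 0.0542 without healthy library 2). Cd44, the hyaluronan receptor, had 143 and 176 CPM in the Rbpj-deleted libraries and 376 and 518 CPM in the healthy ones (-1.48 ± 0.29, adjusted p = 0.0183, and 0.0659 without Rbpj-deleted library 1 and 0.0857 without healthy library 2). The Rbpj-deleted libraries were below the healthy ones in each. Ccr2, a chemokine receptor of inflammatory monocytes, was not called and had 41.3 and 119.8 CPM in the Rbpj-deleted libraries and 25.2 and 106 CPM in the healthy ones (adjusted p = 0.841). Healthy library 2 held the cell rich in neutrophil counts, and leaving out members of at least 50 such counts gave 438 called genes in this type in place of 396.

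In border-type cells 3 monocyte-derived genes rose and 2 fell, of 28 tested. Plbd1 (ENSMUSG00000030214, chromosome 6:136612070-136661928), a lysosomal phospholipase, had 303 and 221 CPM in the Rbpj-deleted libraries, 376 and 189 CPM in the control libraries and 14.4 and 14.7 CPM in the healthy ones and rose by 4.17 ± 0.36 (adjusted p = 8.91e-05). Plbd1 had 352 and 342 CPM in the Rbpj-deleted libraries and 186 and 302 CPM in the healthy ones in monocyte-derived-type cells and was not called (adjusted p = 0.455). Itgal and Lyz2, another lysozyme gene, also rose, Lyz2 at an adjusted p of 0.0253 that became 0.0802 with the library split as a batch, 0.244 without Rbpj-deleted library 2, 0.0892 without healthy library 1 and 0.0609 without healthy library 2. Itgal, the integrin chain of LFA-1, had 79.8 and 91.2 CPM in the Rbpj-deleted libraries, 115 and 95.6 CPM in the control libraries and 19.2 and 24.8 CPM in the healthy ones in border-type cells and rose by 1.97 ± 0.24 (adjusted p = 0.000705). In monocyte-derived-type cells it had 190 and 196 CPM in the Rbpj-deleted libraries, 195 and 204 CPM in the control libraries and 553 and 566 CPM in the healthy ones and fell, at -1.54 ± 0.26 (adjusted p = 0.00903). The groups did not overlap in either type, and their order was opposite.

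**Figure D4:**
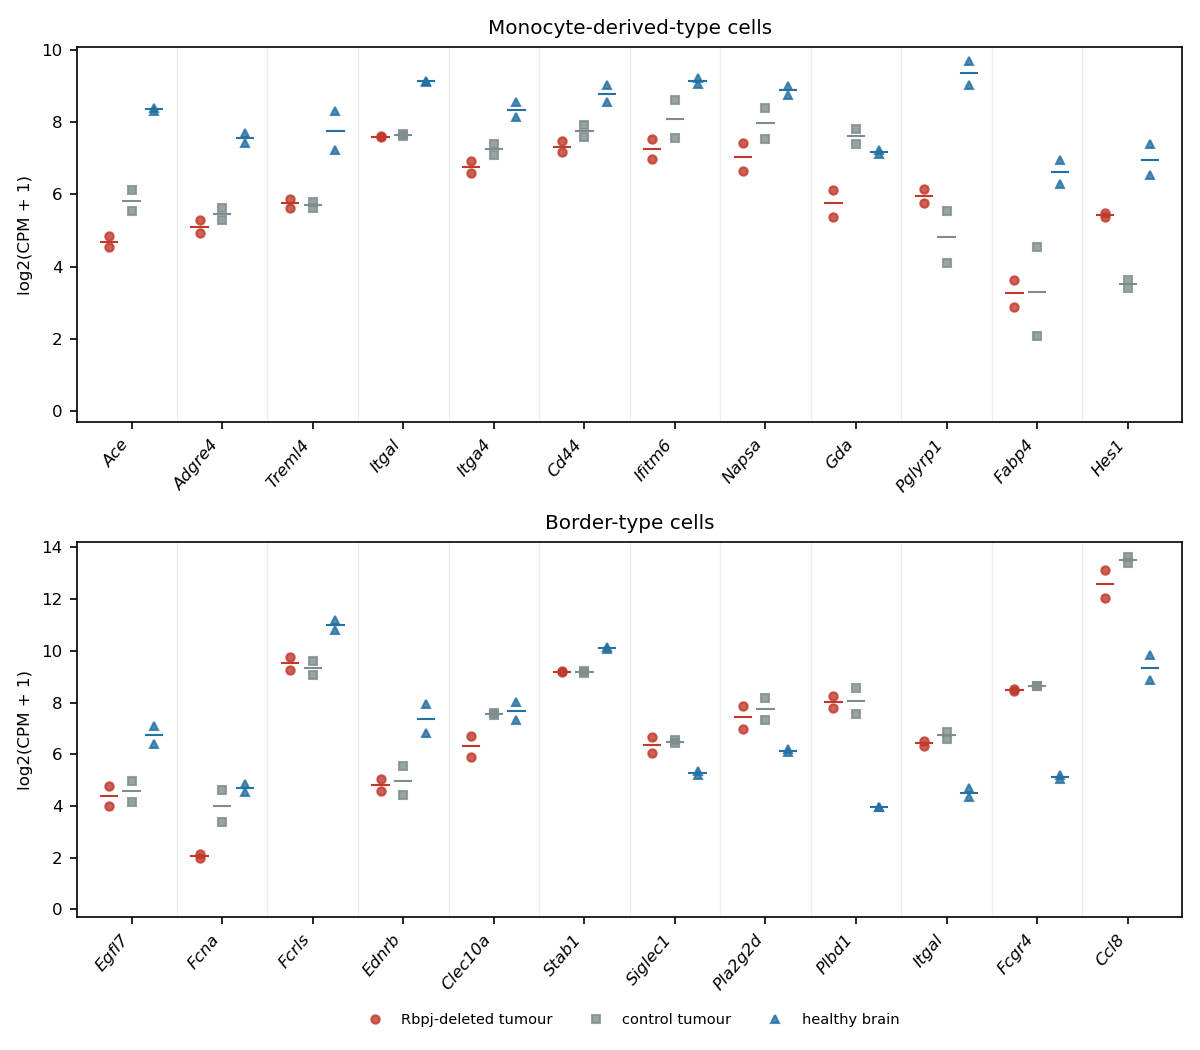
Levels of genes of monocyte-derived cells within monocyte-derived-type cells (upper panel) and of border macrophage and other genes within border-type cells (lower panel), as log2(CPM + 1), where points are libraries and short lines are the mean of 2 libraries. Ace had 27.7 and 22.4 CPM in the Rbpj-deleted libraries and 317 and 334 CPM in the healthy ones, and Itgal lies below the healthy libraries in the upper panel and above them in the lower one.

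Genes that glucocorticoids induce were lower. Over all cells 5 of 10 fell and 1 rose (median log2 fold change -2.29), in border-type cells 4 of 9 fell (median -1.97), and in monocyte-derived-type cells 3 of 10 fell and 1 rose (median -2.05). Leaving out 1 library gave 4 to 6, 4 to 5 and 2 to 4 falls. Fkbp5 (ENSMUSG00000024222, chromosome 17:28399094-28517527), a co-chaperone of the glucocorticoid receptor, had 30.9 and 16.6 CPM in the Rbpj-deleted libraries, 60.0 and 43.8 CPM in the control libraries and 271 and 200.2 CPM in the healthy ones. The 2 healthy libraries were above all 4 tumour libraries, and the log2 fold change was -3.31 ± 0.35 (adjusted p = 0.00161). It was -3.17 ± 0.35 in border-type cells and -2.37 ± 0.40 in monocyte-derived-type cells (adjusted p = 0.000529 and 0.00950), and in monocyte-derived-type cells it was 0.0539 with the library split as a batch and 0.0689 without healthy library 1. Ddit4, an inhibitor of the growth kinase mTORC1, had 3.02 and 6.84 CPM in the Rbpj-deleted libraries, 10.2 and 1.87 CPM in the control libraries and 134 and 93.1 CPM in the healthy ones in border-type cells. Within monocyte-derived-type cells Ddit4 had 16.2 and 23.9 CPM in the Rbpj-deleted libraries, 13.6 and 22.7 CPM in the control libraries and 184 and 161 CPM in the healthy ones. Every tumour library was below every healthy one in both types. Its log2 fold changes were -4.66 ± 0.45 and -3.07 ± 0.33 (adjusted p = 0.000240 and 0.000776). Tsc22d3, which encodes the glucocorticoid-induced leucine zipper, had 100 and 155 CPM in the Rbpj-deleted libraries, 123 and 274 CPM in the control libraries and 921 and 789 CPM in the healthy ones (-2.74 ± 0.42, adjusted p = 0.0109). Klf9, a transcription factor, had 13.3 and 14.6 CPM in the Rbpj-deleted libraries and 87.3 and 65.4 CPM in the healthy ones (-2.45 ± 0.30, adjusted p = 0.00297). Cdkn1a, a cell cycle inhibitor that is induced by many stimuli, rose over all cells, at 449 and 356 CPM in the Rbpj-deleted libraries and 92.3 and 88.8 CPM in the healthy ones (2.15 ± 0.40, adjusted p = 0.0223). That adjusted p became 0.0640 and 0.0791 without Rbpj-deleted libraries 1 and 2 and 0.139 and 0.103 without healthy libraries 1 and 2. Sgk1 and Per1 were not called over all cells, with Sgk1 at 514 and 288 CPM in the Rbpj-deleted libraries and 545 and 249 CPM in the healthy ones (adjusted p = 0.993). No motif of the 3 searched was found in the promoter windows of Fkbp5 and Ddit4.

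Of 8 genes of arginine, nitric oxide and itaconate metabolism Acod1, Ass1 and Nos2 rose over all cells and none fell (median log2 fold change 2.63). Ass1, Acod1 and Sod2 rose in border-type cells, of 5 tested (median 4.82), and Acod1 and Ass1 in monocyte-derived-type cells, of 8 tested (median 4.83). Over all cells 5 rose without Rbpj-deleted library 1 and 1 without either healthy library. Acod1 (ENSMUSG00000022126, chromosome 14:103046977-103056573), which makes itaconate, had 62.4 and 118 CPM in the Rbpj-deleted libraries, 113 and 110 CPM in the control libraries and 0.133 and 1.36 CPM in the healthy ones, a log2 fold change of 7.40 ± 0.67 (adjusted p = 0.00179). Ass1, which recycles citrulline to arginine, had 267 and 389 CPM in the Rbpj-deleted libraries and 41.3 and 35.4 CPM in the healthy ones in monocyte-derived-type cells. It rose there by 3.09 ± 0.33 (adjusted p = 0.000789), and of its 31-base stretches 43.1% also occur in other genes. Arg1 was high in 1 Rbpj-deleted library only, at 3.91 and 78.8 CPM in the Rbpj-deleted libraries and 0.531 and 1.36 CPM in the healthy ones, and was not called (adjusted p = 0.295). Of 18 lipid genes tested over all cells 3 rose and 1 fell, and 1 rose without either healthy library. Abcg1, a cholesterol exporter, had 241 and 363 CPM in the Rbpj-deleted libraries, 152 and 163 CPM in the control libraries and 74.4 and 66.4 CPM in the healthy ones and rose by 2.10 ± 0.27 (adjusted p = 0.00373). Spp1, or osteopontin, had 189.5 and 779.9 CPM in the Rbpj-deleted libraries and 15.8 and 16 CPM in the healthy ones, with the Rbpj-deleted libraries far apart (4.93 ± 0.71, adjusted p = 0.0180, and 0.135 with the library split as a batch, 0.0572 without control library 1, 0.0576 without control library 2, 0.146 without healthy library 1, 0.109 without healthy library 2 and 0.167 with M of at most 1). Trem2, a lipid receptor of the myeloid lineage, was not called at 1058 and 1177 CPM in the Rbpj-deleted libraries and 1344 and 887 CPM in the healthy ones (adjusted p = 0.999). Cst7, a cathepsin inhibitor, had 47.9 and 39.1 CPM in the Rbpj-deleted libraries, 33.0 and 43.8 CPM in the control libraries and 1.86 and 2.04 CPM in the healthy ones and rose by 4.48 ± 0.33 (adjusted p = 0.000228), and it was 1 of 3 lysosomal genes called higher of 14, a count that was 1 without Rbpj-deleted library 2 or either healthy library. Slc40a1, the iron exporter ferroportin, had 52.1 and 43.7 CPM in the Rbpj-deleted libraries, 37.7 and 71 CPM in the control libraries and 208 and 237 CPM in the healthy ones and fell, at -2.21 ± 0.30 (adjusted p = 0.00486). The ferritin heavy chain gene Fth1 had 19060 and 26230 CPM in the Rbpj-deleted libraries and 5317 and 4413 CPM in the healthy ones in monocyte-derived-type cells and rose by 2.22 ± 0.30 (adjusted p = 0.00308).

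In monocyte-derived-type cells 6 of 11 complement genes were called higher and none lower (median log2 fold change 1.82). The part of a different mix of such cells in the 2 groups was not tested. Without healthy library 1 the count was 3 and without healthy library 2 it was 2. Of 12 tested over all cells 2 rose and 1 fell (median 0.33), and of 12 in border-type cells 2 rose and 1 fell (median 0.56), where none rose without Rbpj-deleted library 1. The gene that fell in both was C5ar1, the receptor of the C5a fragment, with 115 and 139 CPM in the Rbpj-deleted libraries and 247 and 248 CPM in the healthy ones in border-type cells (-0.97 ± 0.23, adjusted p = 0.0300). Its call was lost in both tests without any 1 Rbpj-deleted or healthy library, at adjusted p = 0.0841 to 0.155 over all cells and 0.0876 to 0.138 in border-type cells. C1qa, a chain of the C1q recognition molecule, had 8201 and 6931 CPM in the Rbpj-deleted libraries, 3052 and 5959 CPM in the control libraries and 2156 and 1578 CPM in the healthy ones (2.02 ± 0.37, adjusted p = 0.0143, and 0.0704 without healthy library 2). In border-type cells C1qa had 14520 and 17510 CPM in the Rbpj-deleted libraries and 10390 and 8990 CPM in the healthy ones and was not called (adjusted p = 0.173). C3ar1, the receptor of the C3a fragment, had 228 and 256 CPM in the Rbpj-deleted libraries and 34.4 and 48.2 CPM in the healthy ones in monocyte-derived-type cells and rose by 2.57 ± 0.30 (adjusted p = 0.00135). Of the glycolysis and hypoxia genes 6 of 15 rose in border-type cells and 4 of 16 in monocyte-derived-type cells. In border-type cells the count was 0 without Rbpj-deleted library 2 and 1 without either healthy library, and it was 0 with library-size scaling. The count in monocyte-derived-type cells was 2 without either healthy library. Vegfa, the vascular growth factor, had 65.4 and 63.5 CPM in the Rbpj-deleted libraries, 58.6 and 64.8 CPM in the control libraries and 2.29 and 0 CPM in the healthy ones in monocyte-derived-type cells. The healthy libraries held 1 count, the ratio of scaled counts was 39.8 (95% counting interval 7.11 to 1576) and the adjusted p was 0.00135.

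Axl (ENSMUSG00000002602, chromosome 7:25757273-25788705), a receptor for cells marked for removal, had 227 and 228 CPM in the Rbpj-deleted libraries, 161 and 181 CPM in the control libraries and 23.5 and 23.5 CPM in the healthy ones, with both healthy libraries at the same level. It rose by 3.27 ± 0.23 on the log2 scale over all cells and by 2.84 ± 0.22 in border-type cells (adjusted p = 0.000178 and 3.05e-05). In monocyte-derived-type cells it had 298 and 239.7 CPM in the Rbpj-deleted libraries and 2.29 and 6.43 CPM in the healthy ones, where the healthy libraries held 3 counts and the ratio of scaled counts was 53.2 (95% counting interval 18.2 to 258) (adjusted p = 0.000119). Mertk, its relative, was not called at 164 and 87.0 CPM in the Rbpj-deleted libraries and 306 and 234 CPM in the healthy ones (adjusted p = 0.207). Cd40, the receptor through which T cells activate macrophages, had 95.5 and 122 CPM in the Rbpj-deleted libraries, 116 and 132 CPM in the control libraries and 11.3 and 10.9 CPM in the healthy ones and rose by 3.29 ± 0.24 (adjusted p = 0.000228). Il1rn, the interleukin 1 receptor antagonist, had 68.3 and 109.8 CPM in the Rbpj-deleted libraries and 2.79 and 1.70 CPM in the healthy ones and rose by 5.19 ± 0.50 (adjusted p = 0.00184). Fcgr4, an activating Fc receptor, had 365 and 349 CPM in the Rbpj-deleted libraries, 398 and 394 CPM in the control libraries and 32.3 and 36.1 CPM in the healthy ones in border-type cells and rose by 3.39 ± 0.23 (adjusted p = 1.63e-05). In monocyte-derived-type cells Fcgr4 had 246 and 365 CPM in the Rbpj-deleted libraries and 271 and 276 CPM in the healthy ones and was not called (0.16 ± 0.33, adjusted p = 0.839).

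Of 13 Notch pathway genes tested over all cells none was called by edgeR, and none of 11 in border-type cells, with 1 and 2 at an unadjusted p under 0.05 and none called by DESeq2. In monocyte-derived-type cells Hes1 and Hey1 fell, of 14 tested. Hey1, a relative of Hes1, had 2.62 and 1.11 CPM in the Rbpj-deleted libraries and 39 and 12.9 CPM in the healthy ones, and its adjusted p of 0.0406 became 0.330 and 0.577 without Rbpj-deleted libraries 1 and 2, 0.149 without control library 1 and 0.444 without healthy library 1. Hes1 (ENSMUSG00000022528, chromosome 16:30064384-30067796), a repressor that Notch signalling induces through RBPJ, had 43.4 and 40.3 CPM in the Rbpj-deleted libraries, 11.4 and 9.72 CPM in the control libraries and 91.8 and 167 CPM in the healthy ones. The Rbpj-deleted libraries were below the healthy ones and above the control ones, and the log2 fold change over the healthy libraries was -1.61 ± 0.33 (adjusted p = 0.0211). The adjusted p was 0.0823 without Rbpj-deleted library 2 and 0.142 without healthy library 2. The receptor gene Notch2 had 164 and 115 CPM in the Rbpj-deleted libraries and 195 and 206 CPM in the healthy ones and was not called (adjusted p = 0.281). None of 19 immediate early and stress genes was called by edgeR over all cells or in either type. An unadjusted p under 0.05 was found for 3 of them over all cells, 2 in border-type and 3 in monocyte-derived-type cells, and DESeq2 called 1, 1 and 2. Fos, an early response gene, had 4036 and 1897 CPM in the Rbpj-deleted libraries and 5814 and 1996 CPM in the healthy ones, where the libraries of each group differed widely. Of 18 cell cycle genes Rrm2, Ccna2 and Mcm5 rose over all cells, and none of the 3 was called without Rbpj-deleted library 2 or without healthy library 1. In monocyte-derived-type cells 0 of 17 were called by edgeR or DESeq2, with 5 at an unadjusted p under 0.05. Of 17 macrophage transcription factors Nr1h3, the liver X receptor, rose over all cells at 28.6 and 43.2 CPM in the Rbpj-deleted libraries and 2.92 and 3.06 CPM in the healthy ones (3.58 ± 0.37, adjusted p = 0.00120), while Spi1 had 686 and 949 CPM in the Rbpj-deleted libraries and 520.5 and 486 CPM in the healthy ones (adjusted p = 0.201). EdgeR called none of 17 of these factors in border-type cells and none of 16 in monocyte-derived-type cells, with 6 and 4 at an unadjusted p under 0.05 and 1 and 0 called by DESeq2.

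Rises outside these lists included Slamf7, a receptor of activated immune cells, with 63.1 and 59.3 CPM in the Rbpj-deleted libraries, 137 and 76.8 CPM in the control libraries and 0.583 and 0.776 CPM in the healthy ones in border-type cells. Its log2 fold change was 6.48 ± 0.43 (adjusted p = 1.15e-05). Serpina3f, a serine protease inhibitor, had 84.7 and 62.1 CPM in the Rbpj-deleted libraries, 252 and 186 CPM in the control libraries and 0 and 1.55 CPM in the healthy ones there (7.22 ± 0.74, adjusted p = 0.00206), and 27.3% of its 31-base stretches also occur in other genes. AA467197 had 197 and 246 CPM in the Rbpj-deleted libraries, 115 and 233 CPM in the control libraries and 0 and 12.9 CPM in the healthy ones in monocyte-derived-type cells (5.32 ± 0.80, adjusted p = 0.0143, and 0.0515 without Rbpj-deleted library 1, 0.0576 without Rbpj-deleted library 2 and 0.0638 with L and C of 0). Batf2, a transcription factor of the interferon-gamma response, had 35.6 and 42.5 CPM in the Rbpj-deleted libraries, 71.1 and 74.5 CPM in the control libraries and 0 and 0 CPM in the healthy ones there. It had 260 counts in the Rbpj-deleted libraries and 0 in the healthy ones, at least 8.38-fold higher against a floor of 3 counts over both healthy libraries (adjusted p = 0.00276). In border-type cells Batf2 was detected in healthy libraries, at 33.5 and 50.7 CPM in the Rbpj-deleted libraries and 11.8 and 10.1 CPM in the healthy ones (1.90 ± 0.30, adjusted p = 0.00379).

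Falls outside the lists included Lbx1, Egfr and Gfra2. Lbx1, a homeobox gene known from muscle and spinal cord, had 1.10 and 0.570 CPM in the Rbpj-deleted libraries, 5.83 and 0 CPM in the control libraries and 31.8 and 27.6 CPM in the healthy ones in border-type cells (-4.96 ± 0.60, adjusted p = 0.000600) and 0 counts in monocyte-derived-type cells of every library. Egfr, the epidermal growth factor receptor, had 4.94 and 2.85 CPM in the Rbpj-deleted libraries and 31.6 and 36.9 CPM in the healthy ones there (-3.03 ± 0.46, adjusted p = 0.00288, and 0.0641 without Rbpj-deleted library 2). Gfra2, a receptor of neurturin, had 7.29 and 4.55 CPM in the Rbpj-deleted libraries and 49.8 and 47.7 CPM in the healthy ones over all cells (-3.04 ± 0.31, adjusted p = 0.00114). Over all cells both control libraries were also below both healthy libraries for Egfr and Gfra2. The place of the Rbpj-deleted libraries below the healthy ones was fixed there by the choice of genes.

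Of 8055 genes tested in both types 110 were called higher in both (1.37%), 13 lower in both (0.161%) and 2 in opposite directions (0.0248%). The 2 types come from the same libraries, so these counts are not independent of each other. Among the 13 lower in both was Ddx3y, a gene on the Y chromosome. Sex was not given, so a difference of sex between the groups and one of regulation cannot be told apart for Ddx3y. The part of sex in the other results was not tested. AW112010 (ENSMUSG00000075010, chromosome 19:11047612-11055808), an interferon-inducible transcript, had 846 and 958 CPM in the Rbpj-deleted libraries, 1077 and 1297 CPM in the control libraries and 23.8 and 19.4 CPM in the healthy ones in border-type cells. Within monocyte-derived-type cells AW112010 had 1278 and 1523 CPM in the Rbpj-deleted libraries, 1424 and 1507 CPM in the control libraries and 45.9 and 61.1 CPM in the healthy ones. The healthy libraries were the lowest in both types. It rose by 5.37 ± 0.30 and 4.72 ± 0.35 (adjusted p = 5.78e-06 and 0.000119). Klrk1, which encodes the activating receptor NKG2D of T and natural killer cells, had 97.6 and 113 CPM in the Rbpj-deleted libraries and 1.17 and 1.94 CPM in the healthy ones in border-type cells. Within monocyte-derived-type cells Klrk1 had 88.4 and 109.8 CPM in the Rbpj-deleted libraries and 11.5 and 19.3 CPM in the healthy ones. It rose by 6.18 ± 0.33 and 2.73 ± 0.40 (adjusted p = 5.78e-06 and 0.00426), and the part of T and natural killer RNA in this was not tested. Pglyrp1, a protein that binds bacterial peptidoglycan and is abundant in neutrophils, had 70.1 and 52.9 CPM in the Rbpj-deleted libraries and 828 and 524 CPM in the healthy ones in monocyte-derived-type cells and fell, at -3.47 ± 0.41 (adjusted p = 0.00193). With cells of at least 50 neutrophil marker counts left out it was -3.60 (adjusted p = 0.00594). Its fall in border-type cells (-2.26 ± 0.57, adjusted p = 0.0451) was not called without those cells (adjusted p = 0.254), nor without Rbpj-deleted library 1 or 2, control library 1 or healthy library 1 (adjusted p = 0.239, 0.0580, 0.0506 and 0.282). Hpgd, which breaks down prostaglandins, had 229 and 279.9 CPM in the Rbpj-deleted libraries, 267 and 232 CPM in the control libraries and 689 and 603 CPM in the healthy ones in border-type cells. Within monocyte-derived-type cells Hpgd had 39.2 and 31.4 CPM in the Rbpj-deleted libraries, 15.2 and 25.9 CPM in the control libraries and 117 and 151 CPM in the healthy ones. All tumour libraries were below the healthy ones in both types, with log2 fold changes of -1.35 ± 0.24 and -1.92 ± 0.32 (adjusted p = 0.00764 and 0.00841). Its call in border-type cells was lost without Rbpj-deleted library 1 (adjusted p = 0.0537), and that in monocyte-derived-type cells with M of at most 1 (adjusted p = 0.260).

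Whether the contrast itself differed between the types was tested on the difference of monocyte-derived-type minus border-type levels within each library. With limma none of 8055 genes was called (0%), with 817 at an unadjusted p under 0.05. An edgeR interaction over the 12 sums, with the library as a block and chosen after seeing the data, called 268 (3.33%), 109 with a higher change (1.35%) and 159 with a lower change (1.97%) in monocyte-derived-type cells. By the edgeR interaction the log2 fold change in monocyte-derived-type cells minus that in border-type cells was 2.77 ± 0.31 for Ccl12, 2.39 ± 0.31 for Cxcl16 and 2.05 ± 0.29 for C3ar1 (adjusted p = 0.000311, 0.000940 and 0.00162). It was -3.53 ± 0.25 for Itgal (adjusted p = 6.53e-06), which was called in opposite directions in the 2 types. It was -3.58 ± 0.29 for Plbd1, -3.27 ± 0.31 for Fcgr4 and -2.77 ± 0.43 for Cd274 (adjusted p = 2.10e-05, 0.000118 and 0.00497). It was not called for Cxcl9, Acod1 or Fkbp5 (adjusted p = 0.960, 0.922 and 0.157), nor for Ace (-1.59 ± 0.47, adjusted p = 0.0969). A p that misses the threshold does not show that the types changed alike.

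**Figure D5:**
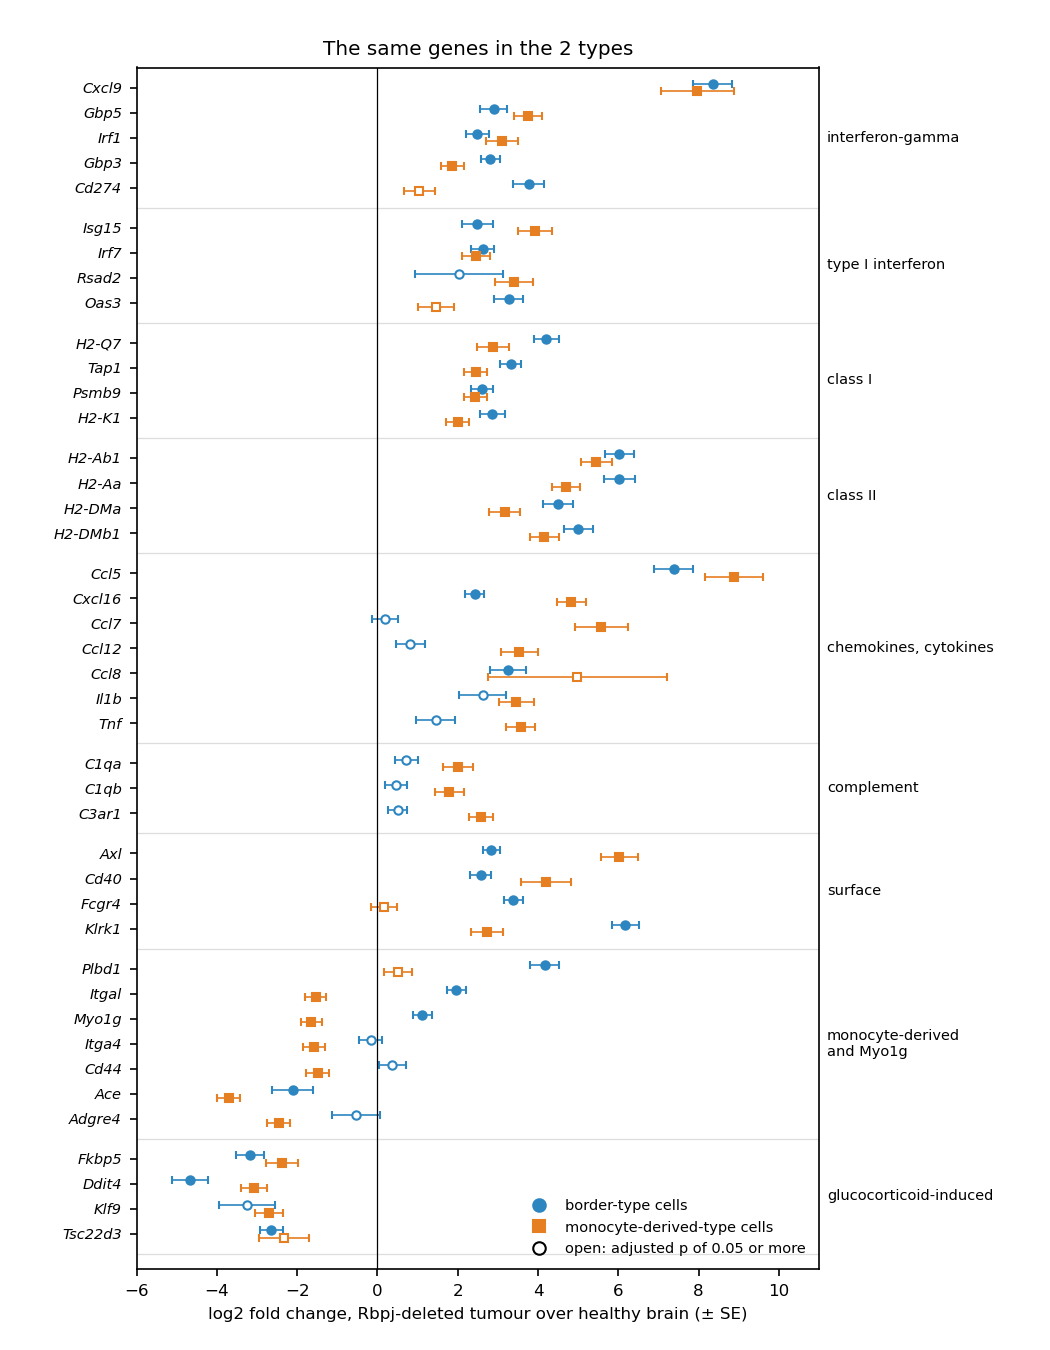
Log2 fold change of the Rbpj-deleted libraries over the healthy ones for named genes in border-type cells (blue circles) and monocyte-derived-type cells (orange squares), with the SE of the edgeR fit, where open symbols were not called. Cxcl9 lies near 8 in both types, Ccl7, Ccl12 and C3ar1 were called higher in monocyte-derived-type cells and not called in border-type cells, and Itgal and Myo1g lie on opposite sides of 0; fitted values of genes with 3 or fewer healthy counts, such as Ccl5, Ccl7 and Axl in monocyte-derived-type cells, depend on the prior count.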

How the data were processed

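CD45+ cells were sorted and sequenced with 10x Genomics 3′ version 3 chemistry, per the labels' protocols, and the authors deposited 1 table of UMI counts per gene and cell barcode, in which every barcode held at least 1000 counts. The submitters' processing notes name kallisto 0.46.0, bustools 0.39.3 and the mouse build mm10, without saying which step each served, and the strand setting was not given in the sources used here. Of 27378 gene identifiers 19 had no symbol in the GENCODE annotation of GRCm38, which also gave the gene coordinates. The deposited counts were not changed. Barcodes were assigned to libraries by their labels, cells were kept by the stated rule, doublets were not called, and counts were summed per library over all kept cells, over cells with B above D and over cells with D above B.

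The sums were tested in edgeR 4.0.16 (R 4.3.3) with filterByExpr, TMM scaling and the robust quasi-likelihood test over all 6 libraries, so that the 2 control libraries helped to estimate the spread, and p-values were adjusted over all genes tested. DESeq2 1.42.0 was an alternative, and limma 3.58.1 tested the difference between the types. The steps were tested on simulated data. Other alternatives were no filter, library-size scaling, the 4 libraries alone, a replicate block, the library split as a batch, each library left out, a filter on cells, other limits in the rule, equal weight of the types and neutrophil-rich cells left out.

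Named genes included the 12 largest rises and falls called over all cells, with at least 20 CPM in the higher group. These were also required to have libraries of the 2 groups that did not overlap, so their non-overlap over all cells was fixed by the choice. The others were the 8 largest rises and falls called in both types and the 4 genes of smallest p in each list. The 5 each way of smallest p in the difference between types, and genes called in opposite directions, were added. Predicted, ribosomal, mitochondrial and antigen receptor segment genes and Xist were left out. Y-linked genes were also left out of the largest rises and falls. The cells, gene lists, types and tests were chosen with earlier results of these data known. Sharing of sequence was counted as the share of a gene's 31-base stretches found in other genes. Promoter windows were RefSeq's. Some genes that this rule names are not reported here.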

Additional observations from a re-analysis of the deposited data

Results flagged for a closer look

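Itgal and Myo1g were called higher in border-type cells and lower in monocyte-derived-type cells, and were the only 2 of 8055 genes called in opposite directions (0.0248%). For Itgal the log2 fold change in monocyte-derived-type cells minus that in border-type cells was -3.53 ± 0.25 (SE; edgeR interaction, adjusted p = 6.53e-06). Myo1g, a membrane-associated myosin of blood cells, had 45.2 and 49.6 CPM in the Rbpj-deleted libraries, 45.2 and 43.1 CPM in the control libraries and 21.4 and 22.1 CPM in the healthy ones in border-type cells (1.12 ± 0.24, adjusted p = 0.0223). In monocyte-derived-type cells Myo1g had 109 and 103 CPM in the Rbpj-deleted libraries, 144 and 107 CPM in the control libraries and 342 and 325 CPM in the healthy ones (-1.65 ± 0.26, adjusted p = 0.00702). The difference of its 2 fold changes was -2.79 ± 0.24 (edgeR interaction, adjusted p = 3.49e-05). limma's test of the difference called neither. In border-type cells the call of Myo1g was lost without Rbpj-deleted library 1 or 2 (adjusted p = 0.0742 and 0.147) and without healthy library 1 or 2 (adjusted p = 0.161 and 0.0948).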

How the results depend on the processing

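Over all cells, against 554 called genes, DESeq2 called 881, no filter on low counts 1449, the library split as a batch 171, and leaving out 1 library 167 to 695. In border-type cells, against 539, no filter called 1008, the library split 273 and leaving out 1 library 187 to 593. In monocyte-derived-type cells, against 396, no filter called 921, the library split 191 and leaving out 1 library 168 to 409. The difference between the types called 0 with limma and 268 with the edgeR interaction. Over all cells, averaging the types with equal weight gave Itgal -0.95 (adjusted p = 0.0275) and Myo1g -1.09 (adjusted p = 0.0194), both lower in the Rbpj-deleted libraries. With no filter an entry named Aldoa was at -1.83 in border-type cells (adjusted p = 0.839). More than 1 gene identifier carried that symbol, so this value is not read as a reversal of the Aldoa called higher there. The other alternatives kept the counts within 1.5 times.

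Whether equal library numbers pair the samples is not known, and the correlations below cannot decide it. Deviations from the group means correlated at 0.193 between the Rbpj-deleted and healthy libraries and at -0.099 between the Rbpj-deleted and control libraries. Between the control and healthy libraries the correlation was -4.85e-06. With the replicate number as a block 523, 639 and 497 genes were called over all cells, in border-type and in monocyte-derived-type cells. Without it the counts were 554, 539 and 396. Control library 2 held under 20 cells and was left out in border-type cells with M of at most 1, and in monocyte-derived-type cells with B+D of at least 10, with M of at most 1 and with L and C of 0.

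Depth limits the monocyte-derived-type contrast, in which the healthy libraries held 52 and 33 such cells with 362266 and 298124 counts. With 2 libraries a group a miss of the threshold does not show that levels were alike, and the causes of the differences between alternatives were not tested.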
